A study of Mus musculus with 10 samples.

Results

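The growth cone proteins Gap43, Basp1, Marcks and Marcksl1 and the regeneration-associated genes Atf3, Sprr1a, Gadd45a, Klf6, Klf7 and Gal were followed in the hippocampus after an axonal lesion. All probe sets whose only gene symbol on the array platform was 1 of these 10 genes were taken, which gave 26 of the 45037 probe sets measured and 10 of the 18193 genes with a probe set of their own. No probe set listed a member beside another symbol. Of the genes, 6 had 1 probe set each, while Marcks had 7, Klf6 had 5, and Marcksl1 and Klf7 had 4 each. Whole hippocampi came from female SJL/J mice, 8 to 10 weeks old when obtained, and RNA was taken 2 days after the lesion. In 5 mice the axonal lesion was the only treatment (AxL). The other 5 mice carried the same lesion and had also been given T cells specific for Plp, the myelin proteolipid protein (TPlp+AxL). All 10 mice were therefore lesioned, and unlesioned hippocampus was not analysed here, so the values compare lesioned tissue with and without the transferred T cells and give no response to the lesion itself. Each array was 1 mouse. The comparison asked which transcripts the myelin-specific T cells move in the lesioned hippocampus, in the setting of lesion-induced neurogenesis named by the study.

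A growth cone is the motile tip of an extending axon. GAP-43, BASP1, MARCKS and MARCKSL1 (MARCKS-like protein) are acidic, membrane-attached proteins of its inner surface that bind calmodulin, are phosphorylated by protein kinase C and influence the actin skeleton beneath the membrane. ATF3, KLF6 and KLF7 are transcription factors, SPRR1A is a small proline-rich protein, GADD45A is a stress-inducible protein and galanin is a neuropeptide. These genes are known above all from peripheral neurons that regrow a cut axon, and in the hippocampus GAP-43 is also a protein of the mature presynaptic terminal and of sprouting axons.

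Every value below is a log2 expression value from robust multi-array averaging (RMA), and every change is the mean of the TPlp+AxL arrays minus the mean of the AxL arrays. The array medians lay between 7.88 and 7.92. The array of AxL 4 had the lowest median correlation with the other arrays, 0.989, against 0.993 to 0.996 for the others. Hippocampal subfield markers, of which 9 of 10 were measured, were present on all arrays, with list means of 10.33 to 10.46 per array. Choroid plexus markers, 8 measured, stood apart on AxL 3 with a mean of 10.74, AxL 5 with 9.81 and TPlp+AxL 1 with 9.89, while the other 7 arrays had 8.40 to 8.56. Monocyte and neutrophil markers had list means of 8.66 to 9.12 in AxL and 9.66 to 9.97 in TPlp+AxL, and T cell markers had 8.19 to 8.25 and 8.41 to 8.68.

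Promoter sequence was at hand for 8 of the 10 genes from RefSeq on the mouse build GRCm38.p6, as windows from 250 bases before to 50 bases after the gene start. The lines below give the complete windows of Klf6 and Klf7, the members with the most uniform signs over their probe sets, with a GC box (GGGCGG), the kind of site that Sp and Krüppel-like factors bind, in capitals. They also give stretches of the Atf3 and Sprr1a windows that hold a cyclic AMP response element (CRE) and a pair of AP-1 elements, sites of the ATF and Jun families, in capitals. All are written 5′ to 3′ on the strand of the gene.
Klf6, chr13:5861239-5861538, plus strand: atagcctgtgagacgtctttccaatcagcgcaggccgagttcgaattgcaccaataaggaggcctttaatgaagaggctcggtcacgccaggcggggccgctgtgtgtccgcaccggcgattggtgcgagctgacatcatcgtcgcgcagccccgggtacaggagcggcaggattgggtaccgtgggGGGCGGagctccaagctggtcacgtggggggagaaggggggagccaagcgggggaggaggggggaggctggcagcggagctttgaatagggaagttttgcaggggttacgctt
Klf7, chr1:64121340-64121639, minus strand: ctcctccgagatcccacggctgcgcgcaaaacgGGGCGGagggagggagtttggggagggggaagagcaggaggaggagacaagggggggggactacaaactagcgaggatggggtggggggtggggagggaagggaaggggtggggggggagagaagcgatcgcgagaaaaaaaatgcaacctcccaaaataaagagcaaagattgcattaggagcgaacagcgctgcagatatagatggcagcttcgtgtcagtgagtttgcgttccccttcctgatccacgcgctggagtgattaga
Atf3, chr1:191183310-191183369, minus strand: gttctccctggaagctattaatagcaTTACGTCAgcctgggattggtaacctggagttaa
Sprr1a, chr3:92485960-92486058, minus strand: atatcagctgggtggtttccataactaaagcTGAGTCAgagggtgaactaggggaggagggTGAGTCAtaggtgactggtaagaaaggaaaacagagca

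Searched on both strands, the GC box was in 7 of the 8 windows, in each but that of Sprr1a, and in 35.7% of all 32851 windows of the same length. The Klf6 and Klf7 windows had 1 each, starting 63 and 217 bases before the gene start. The Atf3 window had the most matches, starting 210, 180, 176, 126 and 71 bases before the start, outside the stretch shown. The Basp1 window had 4 matches and the highest GC content of the 8, 78.0%, against 48.7% for Sprr1a and a median of 52.7% over all windows. The AP-1 letters TGANTCA were in the Sprr1a window alone among the 8, with matches starting 146 and 116 bases before the start, and in 7.81% of all windows. The CRE letters TGACGTNA were in the Atf3 window alone, with a match on the opposite strand starting 10 bases before the start, and in 2.93% of all windows. The STAT letters TTCNNNGAA were in 0 of the 8 windows and in 8.30% of all windows. A match is a description of the sequence, and a window without one says only that these letters are not in it.

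None of the 26 probe sets passed the test. The limma fit over the whole table called a probe set at a Benjamini-Hochberg adjusted p under 0.05. It called 0 of the 26 higher and 0 lower, against 0.835% of all 45037 probe sets, of which 291 were higher (0.646%) and 85 lower (0.189%). At an unadjusted p under 0.05 the count was 4 of 26 (15.4%), against 14.3% of all probe sets. The member count depended on the setting: it was 8 of 26 (30.8%, against 18.7% of all probe sets) without AxL 2, 7 of 26 (26.9%, against 13.7%) with a replicate block, and 5 of 26 (19.2%) after cyclic loess or repeated quantile normalization, against 12.1% and 12.5%. With the other arrays left out in turn it was 3 to 6 of 26 (11.5% to 23.1%), against 10% to 16.2% of all probe sets. With array weights it was 5 of 26 (19.2%, against 19%), and with array medians subtracted 5 of 26 (19.2%, against 17.1%). A trended and robust variance gave 4 of 26 (15.4%, against 14%), and the probe sets above the median level 3 of 21 (14.3%, against 15.8%). The 4 probe sets in the fit to all arrays were the Basp1 probe set, 2 of Klf6 (1433508_at and 1459718_x_at) and 1 of Marcks (1437034_x_at). The groups were fully apart in 0 of the 26, against 3.59% of all probe sets, 1.94% with TPlp+AxL higher and 1.64% with it lower. The changes ran from -0.17 for Basp1 to 0.33 for Klf6 1433508_at, with 14 positive (53.8%) and 12 negative and a median of 0.0072. Over all probe sets 48.3% were positive and the median was -0.0034. A miss of the threshold does not show that the groups were alike, but the 95% intervals limit the size: 24 of the 26 exclude a log2 change of 0.5 in either direction, and the exceptions are the Klf6 probe sets 1433508_at and 1418280_at.

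**Figure D1:**
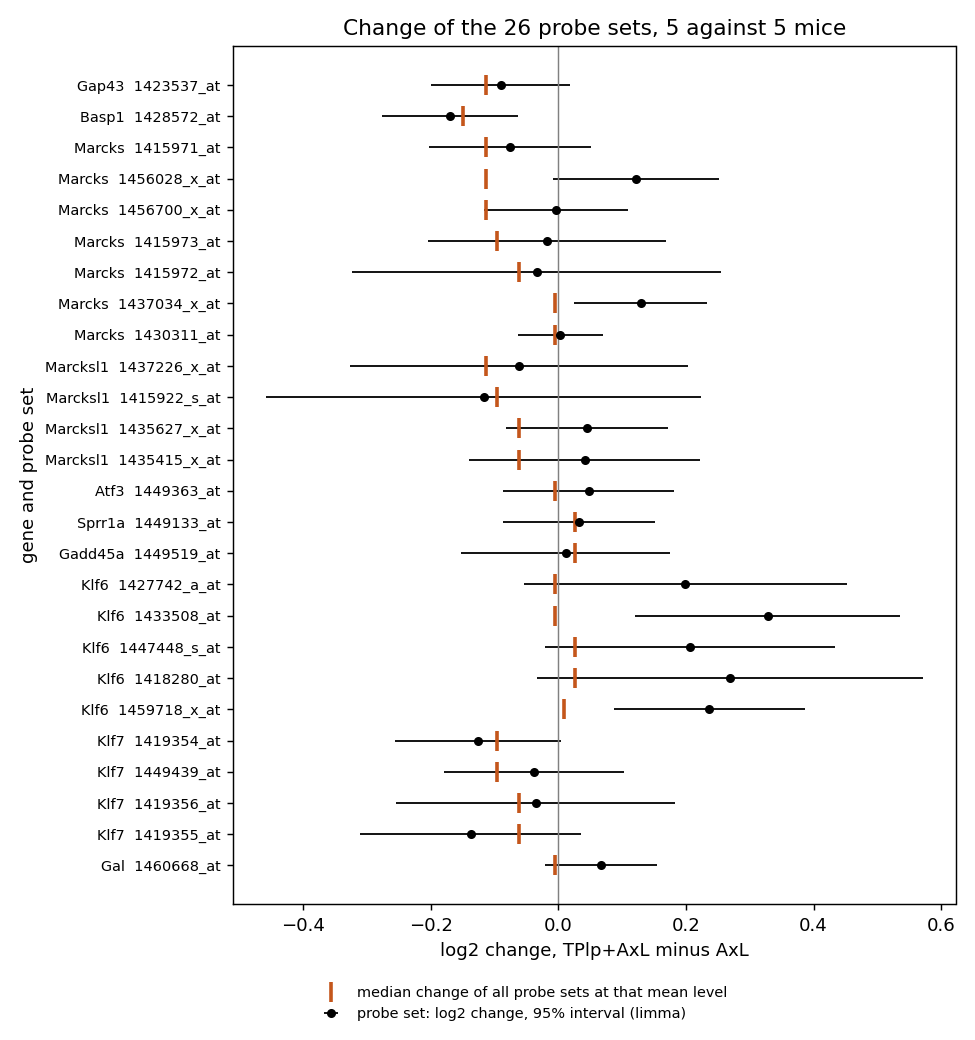
The log2 change (TPlp+AxL minus AxL, horizontal axis) of each of the 26 probe sets with its 95% interval from the limma fit over 5 arrays per group as dots and lines, and the median change of all probe sets at the same mean level as an upright mark; the smallest and largest changes are -0.17 for Basp1 and 0.33 for Klf6 1433508_at. The 5 Klf6 probe sets lie above 0 and the 4 Klf7 probe sets below, and no probe set passed the threshold.

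Gap43, which encodes the growth-associated protein GAP-43, had AxL values of 11.35, 11.18, 11.47, 11.31 and 11.34 on arrays 1 to 5. With the T cells they were 11.20, 11.24, 11.27, 11.28 and 11.21. The TPlp+AxL arrays lay in a narrow band inside the AxL range, whose lowest array was AxL 2 and highest AxL 3. The means were 11.33 ± 0.11 (SD, n = 5) and 11.24 ± 0.04 (SD, n = 5). The change was -0.09 (SE 0.05, 95% interval -0.20 to 0.02, limma adjusted p = 0.425), a fold of 0.939. After cyclic loess normalization the change was 0.01 and after repeated quantile normalization 0.02, so its sign depended on the scaling. It was -0.13 without AxL 2 and -0.05 without AxL 3. In bulk tissue, fewer cells of a type and less RNA per cell cannot be told apart, here and for every member.

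Basp1, which encodes a brain acid-soluble protein related to GAP-43 in its properties, was the brightest of the 26 probe sets. Its AxL values were 13.86, 13.87, 13.88, 13.76 and 13.74. In TPlp+AxL they were 13.76, 13.72, 13.64, 13.57 and 13.57. In 4 of the 5 TPlp+AxL arrays Basp1 lay under the lowest AxL array, and TPlp+AxL 1 overlapped AxL 4 and AxL 5. The means were 13.82 ± 0.06 (SD, n = 5) and 13.65 ± 0.09 (SD, n = 5). The change of -0.17 (SE 0.05, 95% interval -0.28 to -0.06) was a fold of 0.889 and had the smallest adjusted p of all members, 0.157 by limma. The 338 probe sets with a mean level between 13 and 14 had a median change of -0.15, so Basp1 stood at about the level of other bright probe sets. The change was -0.02 after cyclic loess and -0.0044 after repeated quantile normalization.

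**Figure D2:**
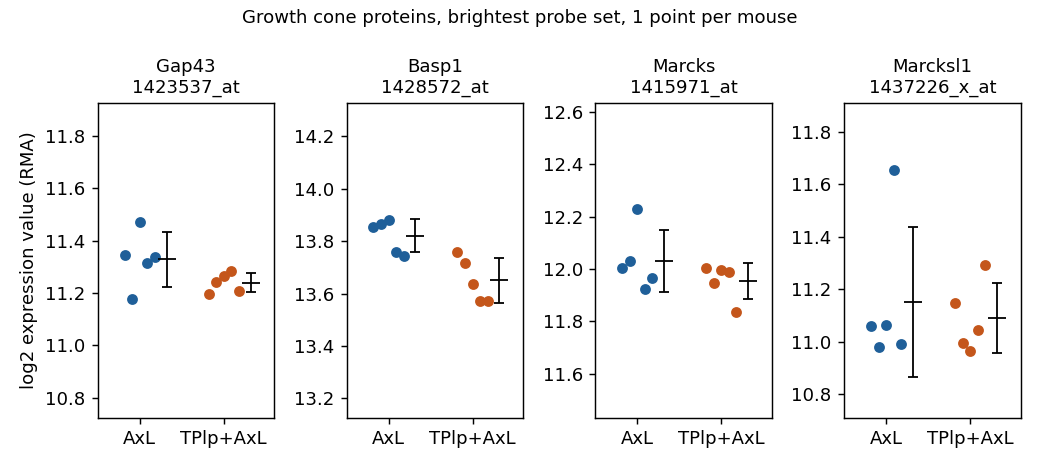
Log2 expression (vertical axis) of the brightest probe sets of Gap43, Basp1, Marcks and Marcksl1 on each of the 5 AxL and 5 TPlp+AxL arrays as points, with the mean and SD as bars. The Gap43 groups overlap, with means of 11.33 and 11.24, 4 of 5 TPlp+AxL arrays of Basp1 lie below the lowest AxL array, and AxL 4 stands alone in Marcksl1.

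Marcks, the myristoylated alanine-rich C-kinase substrate, had 7 probe sets with mean levels from 8.19 to 11.99, and their changes ran from -0.08 to 0.13 with 3 positive and 4 negative. The brightest, 1415971_at, had AxL values of 12.00, 12.03, 12.23, 11.92 and 11.96. Its TPlp+AxL values were 12.00, 11.95, 11.99, 11.99 and 11.84. AxL 3 was the highest array and TPlp+AxL 5 the lowest, and the other 8 arrays were interleaved. The change was -0.08 (SE 0.06, limma adjusted p = 0.560). It was -0.03 without AxL 3, and positive after repeated quantile (0.05) and cyclic loess (0.04) normalization.

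The Marcks probe set 1437034_x_at went the other way. Its AxL values were 8.87, 8.95, 8.88, 8.75 and 8.76. Its TPlp+AxL values were 8.90, 8.95, 8.98, 9.06 and 8.96. Here 3 of the 5 TPlp+AxL arrays lay above the highest AxL array, AxL 2. The change was 0.13 (95% interval 0.02 to 0.23, limma adjusted p = 0.260). Probe set 1456028_x_at, with AxL values from 11.47 to 11.75 and TPlp+AxL values from 11.68 to 11.84, had a change of 0.12 (95% interval -0.0079 to 0.25, limma adjusted p = 0.374). Both carry the ending _x_at, the platform's mark for probes that may match other transcripts, and the third such probe set, 1456700_x_at, had a change of -0.0038 (limma adjusted p = 0.979). The probe sets 1415973_at and 1415972_at had changes of -0.02 and -0.03. The dimmest, 1430311_at, spanned 8.13 to 8.22 over all 10 arrays and had a change of 0.0030. As deposited, the 7 probe sets of Marcks thus gave no common sign. After repeated quantile or cyclic loess normalization 6 of the 7 were positive, all but 1430311_at. The change of 1456028_x_at was then 0.24 and 0.23, and it was 0.02 without the 3 arrays high in choroid plexus markers.

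Marcksl1 encodes a smaller relative of MARCKS that binds calmodulin and actin. Its 4 probe sets had 2 positive and 2 negative changes, from -0.12 to 0.04, and the smallest limma adjusted p was 0.745. All 4 carry an ending, _x_at or _s_at, that marks probes that may match several transcripts. Of all the member probe sets, 16 had no such ending (_x_at, _s_at or _a_at). All 4 were highest on the array AxL 4, the array with the lowest correlation with the others. The brightest, 1437226_x_at, had AxL values of 11.06, 10.98, 11.06, 11.66 and 10.99 and TPlp+AxL values of 11.15, 10.99, 10.96, 11.05 and 11.29. AxL 4 stood alone above the other 9 arrays. The change was -0.06 (SE 0.12, limma adjusted p = 0.839) with all arrays and 0.06 without AxL 4. Probe set 1415922_s_at read 11.02 on AxL 4, 10.12 to 10.27 on the other AxL arrays and 10.08 to 10.44 on the TPlp+AxL arrays. Its change was -0.12 (SE 0.16, limma adjusted p = 0.750) with all arrays and 0.05 without AxL 4. The sign of both probe sets was positive without that array, and that of 1437226_x_at was also positive with it, at 0.04, after cyclic loess or repeated quantile normalization. The 2 positive probe sets, 1435627_x_at and 1435415_x_at, had changes of 0.04 each, and AxL 5 was their lowest array, with 9.37 and 8.998.

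**Figure D3:**
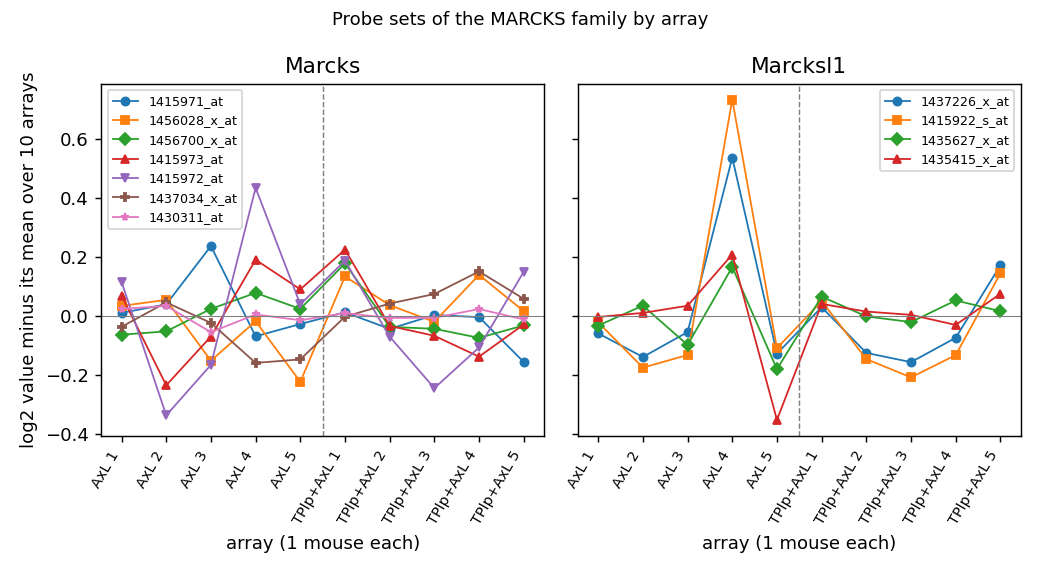
Log2 value minus its mean over the 10 arrays (vertical axis) for the 7 Marcks and 4 Marcksl1 probe sets over the 10 arrays (horizontal axis, AxL 1 to 5, then TPlp+AxL 1 to 5), 1 line per probe set, joined only to guide the eye. AxL 4 is the highest array in all 4 Marcksl1 probe sets, and the Marcks lines do not separate the groups.

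Among the transcription factors, Atf3, an early injury-induced member of the ATF family, read 8.49, 8.36, 8.56, 8.69 and 8.53 on the AxL arrays. In TPlp+AxL it read 8.66, 8.45, 8.64, 8.57 and 8.54. All TPlp+AxL arrays lay inside the AxL range. The means were 8.53 ± 0.12 (SD, n = 5) and 8.57 ± 0.08 (SD, n = 5). The change was 0.05 (95% interval -0.09 to 0.18, limma adjusted p = 0.741). This value ran from 0.0053 without AxL 2 to 0.09 without AxL 4.

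Klf6, a zinc-finger factor of the Krüppel-like family, was the member with the largest changes: its 5 probe sets had changes from 0.20 to 0.33, and none passed the test. Probe set 1433508_at had AxL values of 8.50, 8.25, 8.37, 8.71 and 8.66. The TPlp+AxL values were 9.05, 8.71, 8.74, 8.73 and 8.91. In all, 4 of the 5 TPlp+AxL arrays lay above the highest AxL array, AxL 4, and TPlp+AxL 2 was just under it. The means were 8.50 ± 0.19 (SD, n = 5) and 8.83 ± 0.15 (SD, n = 5). The change was 0.33 (SE 0.09, 95% interval 0.12 to 0.54, limma adjusted p = 0.163), a fold of 1.26 with an interval of 1.09 to 1.45.

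The dimmest Klf6 probe set, 1459718_x_at, had AxL values of 6.46, 6.31, 6.45, 6.65 and 6.62 and TPlp+AxL values of 6.88, 6.71, 6.76, 6.68 and 6.64. Again 4 of 5 TPlp+AxL arrays lay above all AxL arrays. The change was 0.24 (95% interval 0.09 to 0.39, limma adjusted p = 0.163). The other 3 overlapped more. The brightest, 1427742_a_at, read 8.80, 8.39, 8.59, 8.71 and 8.95 in AxL and 9.20, 8.78, 8.68, 8.76 and 9.003 in TPlp+AxL. Its change was 0.20 (limma adjusted p = 0.445), and 0.12 without TPlp+AxL 1. Probe set 1447448_s_at had AxL values from 7.31 to 7.87 and TPlp+AxL values from 7.65 to 8.06, with a change of 0.21 (limma adjusted p = 0.387). Probe set 1418280_at had AxL values from 7.07 to 7.76 and TPlp+AxL values from 7.49 to 8.11, with a change of 0.27 (limma adjusted p = 0.397), or 0.16 without TPlp+AxL 4, its highest array. The mean levels of 1447448_s_at (7.70), 1418280_at (7.54) and 1459718_x_at (6.62) were under every array's median. The last of these also carries the ending _x_at.

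The Klf6 probe sets share their arrays and are not independent of each other: TPlp+AxL 1 was the highest array in 4 of the 5 and AxL 2 the lowest in 4 of the 5. The average over the 5 probe sets had a change of 0.25 (SE 0.07, limma adjusted p = 0.147). Over the 19 settings tried, all 92 Klf6 values were positive, from 0.10 to 0.38, and the lowest adjusted p was 0.0645, with array weights. Without the 3 arrays high in choroid plexus markers, the Klf6 changes were 0.17 to 0.35. Monocyte and neutrophil markers moved with the groups, with 6 of 8 measured markers higher in TPlp+AxL and a median change of 0.95. T cell markers had 3 of 8 higher (Il7r, Cd3g and Cd3d) and 1 lower (Thy1, which neurons also express). Their part in the Klf6 values was not tested.

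Klf7, a Krüppel-like factor known for axon growth in developing neurons, had 4 probe sets, all with changes below 0. The brightest, 1419354_at, had AxL values of 10.78, 10.50, 10.60, 10.70 and 10.65. In TPlp+AxL they were 10.41, 10.63, 10.58, 10.55 and 10.45. TPlp+AxL 1 and 5 lay below every AxL array, and the other 3 were inside the AxL range. The change was -0.13 (95% interval -0.26 to 0.0041, limma adjusted p = 0.362). Probe set 1419355_at read 9.19, 8.97, 9.03, 9.43 and 9.08 in AxL and 8.89, 9.01, 8.95, 9.10 and 9.06 in TPlp+AxL, a change of -0.14 (limma adjusted p = 0.442) that was -0.07 without AxL 4, its highest array. The other two, 1449439_at and 1419356_at, had changes of -0.04 each, and both were positive, 0.02 to 0.04, after cyclic loess and repeated quantile normalization. TPlp+AxL 1 was the lowest array in 3 of the 4. The median change of all probe sets at these levels was -0.10 between 10 and 11 and -0.06 between 9 and 10. Klf6 and Klf7 had opposite signs, and the difference between them was not tested.

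**Figure D4:**
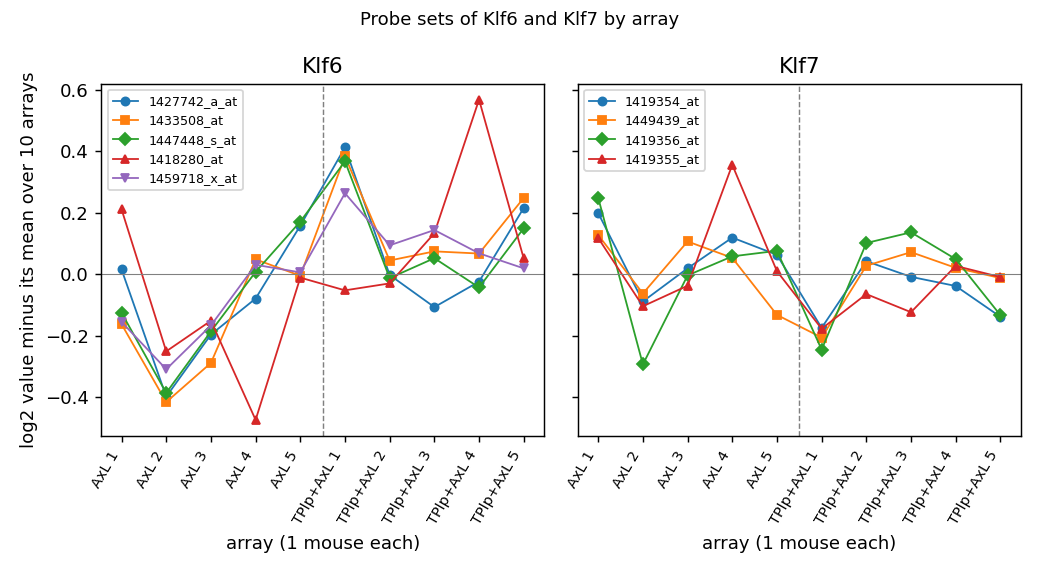
Log2 value minus its mean over the 10 arrays (vertical axis) for the 5 Klf6 and 4 Klf7 probe sets over the 10 arrays (horizontal axis, AxL 1 to 5, then TPlp+AxL 1 to 5), 1 line per probe set, joined only to guide the eye. TPlp+AxL 1 is the highest array in 4 of 5 Klf6 probe sets and the lowest in 3 of 4 Klf7 probe sets.

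Sprr1a, a small proline-rich protein first known from the skin and induced in injured sensory neurons, had AxL values of 7.76, 7.81, 7.61, 7.70 and 7.93. The TPlp+AxL values were 7.80, 7.85, 7.77, 7.78 and 7.76. The TPlp+AxL arrays lay inside the AxL range. The change was 0.03 (95% interval -0.09 to 0.15, limma adjusted p = 0.815), from 7.76 ± 0.12 (SD, n = 5) to 7.79 ± 0.03 (SD, n = 5). Sprr1a and Gadd45a had means under every array's median of 7.88 to 7.92, and the RMA values carry no detection call.

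Gadd45a, a growth arrest and DNA damage-inducible gene, read 7.79, 7.51, 7.67, 7.87 and 7.97 in AxL and 7.85, 7.77, 7.75, 7.78 and 7.72 in TPlp+AxL. AxL 2 was the lowest and AxL 5 the highest of the 10 arrays, with every TPlp+AxL array between them. The means were 7.76 ± 0.18 (SD, n = 5) and 7.77 ± 0.05 (SD, n = 5). The change was 0.01 (95% interval -0.15 to 0.18, limma adjusted p = 0.956).

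Gal, which encodes galanin, had AxL values of 8.15, 8.21, 8.15, 8.12 and 8.06. The TPlp+AxL values were 8.20, 8.30, 8.16, 8.20 and 8.17. TPlp+AxL 2 alone lay above the highest AxL array, AxL 2. The means were 8.14 ± 0.06 (SD, n = 5) and 8.21 ± 0.05 (SD, n = 5), a change of 0.07 (95% interval -0.02 to 0.15, limma adjusted p = 0.456).

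**Figure D5:**
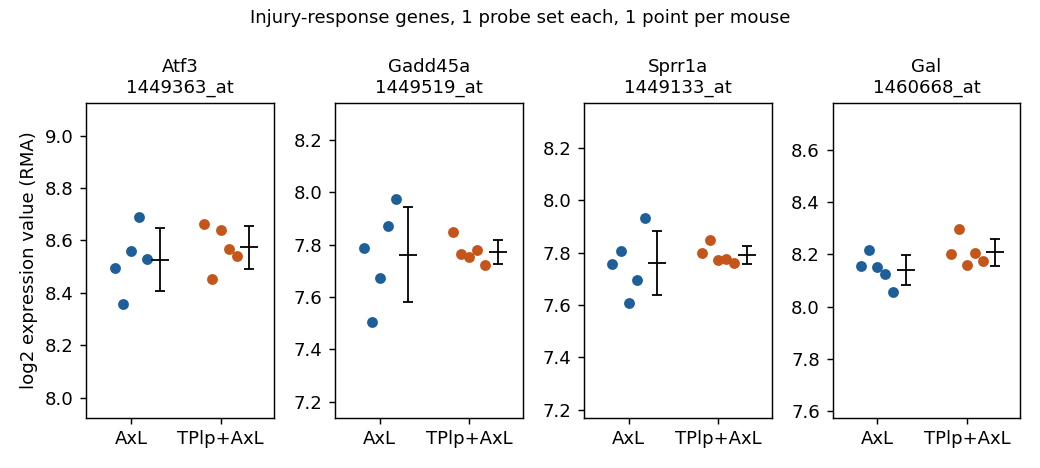
Log2 expression (vertical axis) of the Atf3, Sprr1a, Gadd45a and Gal probe sets on each of the 5 AxL and 5 TPlp+AxL arrays as points, with the mean and SD as bars. The groups overlap in all 4 genes, and the changes are 0.05, 0.03, 0.01 and 0.07.

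The changes of the members stood beside a shift of all probe sets with signal level. The median change over all probe sets was 0.03 at a mean level of 7 to 8, -0.0046 at 8 to 9, -0.06 at 9 to 10, -0.10 at 10 to 11, -0.11 at 11 to 12, -0.13 at 12 to 13 and -0.15 at 13 to 14. Of the 26 member probe sets, 21 lay above the median of their level, and the median distance was 0.05. Probe sets of 1 gene are not independent, and all those of Marcks and Klf6 were among the 21. By brightest probe set, 3 of the 10 member genes lay below the median of their level, against 54.4% of all genes. After cyclic loess or repeated quantile normalization, 20 of the 26 changes were positive, against 14 as deposited.

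The wider set of regeneration-associated genes, each gene taken by its brightest probe set, had 3 of 44 measured genes higher and 0 lower (an unadjusted p under 0.05 in 9), with a median change of -0.04. Over all 18193 genes, 0.978% were higher and 0.280% lower, 17.9% had an unadjusted p under 0.05, 62.7% had a negative change, and the median change was -0.03. Il6, an interleukin that acts on injured neurons, rose from 6.60 ± 0.04 to 8.30 ± 0.51 (SD, n = 5 each), a change of 1.70 (SE 0.19, limma adjusted p = 0.00221). Socs3, a feedback inhibitor of cytokine signalling that limits axon regrowth, rose from 9.35 ± 0.38 to 10.59 ± 0.27 (SD, n = 5 each), a change of 1.24 (SE 0.18, limma adjusted p = 0.0078). Its other 2 probe sets also passed, with changes of 0.57 and 1.24. Plaur, the urokinase receptor, rose by 0.25 (SE 0.05, limma adjusted p = 0.0408), and passed in 1 of the 10 fits that left out 1 array (adjusted p 0.0343 to 0.113), the fit without AxL 5. It also missed the threshold with array medians subtracted (limma adjusted p = 0.0625). Leukocytes express these 3 genes too, and the monocyte and neutrophil and T cell marker values given above moved with the same groups; their part was not tested.

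The kinases, calmodulin genes and phosphatases that act on GAP-43 and MARCKS had 0 higher and 2 lower of 16 measured, and all 16 changes were negative, with a median of -0.20 and an unadjusted p under 0.05 in 8. These are bright genes: the medians of all probe sets at their levels had a median of -0.13, and 13 of the 16 lay below the median of their own level, against 54.4% of all genes. Nrgn, which encodes the calmodulin-binding neurogranin, a relative of GAP-43 in its calmodulin-binding region, fell from 12.39 ± 0.06 to 12.12 ± 0.04 (SD, n = 5 each), a change of -0.27 (SE 0.04, limma adjusted p = 0.0078). Camk2b, a calmodulin-dependent kinase subunit, fell from 12.46 ± 0.09 to 12.20 ± 0.07 (SD, n = 5 each), a change of -0.26 (SE 0.05, limma adjusted p = 0.0355). The Camk2b call was kept in 3 of the 10 fits that left out 1 array, those without AxL 2, AxL 3 or TPlp+AxL 1, with adjusted p from 0.0271 to 0.115, and was lost with a trended variance (limma adjusted p = 0.0898). After cyclic loess normalization the changes were -0.15 for Nrgn (limma adjusted p = 0.241) and -0.13 for Camk2b (limma adjusted p = 0.317), and after repeated quantile normalization both were -0.13. Mature neuron markers had 1 of 10 lower (Thy1, change -0.25, limma adjusted p = 0.0408), 0 higher and a median change of -0.23. All 10 changes were negative and 8 had an unadjusted p under 0.05, and 7 of 10 lay below the median of their level. The list mean was 12.67 to 12.89 in AxL and 12.42 to 12.68 in TPlp+AxL. Hippocampal subfield markers had 0 higher and 1 of 9 lower, Nrgn itself. The part of the neuronal markers in these values was not tested.

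The growth cone actin and membrane proteins had 0 higher and 0 lower of 37 measured by limma, with 15 at an unadjusted p under 0.05, a median change of -0.14 and 35 negative changes. At their levels the medians of all probe sets had a median of -0.11, and 20 of the 37 genes (54.1%) lay below the median of their own level, a share like that of all genes. The smallest p belonged to Palm, the membrane protein paralemmin, with a change of -0.28 (limma adjusted p = 0.157), and Crmp1, a collapsin response mediator protein, with -0.28 (limma adjusted p = 0.177). The other Krüppel-like factors had 0 higher and 0 lower of 12 by limma, with 1 at an unadjusted p under 0.05 and a median change of -0.03. Klf9, with -0.20 (limma adjusted p = 0.278), and Klf14, with 0.06 (limma adjusted p = 0.487), had the smallest p. The AP-1, ATF and stress response factors had 0 higher and 0 lower of 30 by limma, with 3 at an unadjusted p under 0.05 and a median change of -0.05. Batf, an AP-1 factor of lymphocytes, had a change of 0.20 (limma adjusted p = 0.112) and Jund, a Jun family factor, -0.15 (limma adjusted p = 0.278).

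The galanin receptors and other neuropeptides had 0 higher and 0 lower of 14 by limma, with 1 at an unadjusted p under 0.05 and a median change of -0.10. Pdyn, which encodes prodynorphin, had a change of -0.09 (limma adjusted p = 0.337), and Sst, which encodes somatostatin, -0.24 (limma adjusted p = 0.386). The small proline-rich and cornified envelope genes had 1 higher and 0 lower of 7 measured, with a median change of 0.04. The gene that passed, Tgm2, encodes a transglutaminase found in many tissues and is no small proline-rich protein. It rose from 10.07 to 11.19, a change of 1.12 (SE 0.12, limma adjusted p = 0.00171). Of its other 5 probe sets, 3 passed, with changes of 0.79, 1.10 and 1.13, and the remaining ones had 0.11 and 0.17. All Tgm2 probe sets, the brightest included, carry the ending _x_at or _a_at. Without the 3 arrays high in choroid plexus markers, none of Il6, Socs3, Plaur, Nrgn, Camk2b and Tgm2 passed, with limma adjusted p from 0.125 to 0.190, while their changes were 1.72, 1.29, 0.23, -0.23, -0.32 and 1.18. Counting each gene once, the 7 lists had 4 of 155 measured genes higher and 2 lower, with a median change of -0.07.

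The remaining marker lists had 0 genes called higher or lower by limma. Immature neuron markers had 0 of 10 at an unadjusted p under 0.05, and Dcx, the doublecortin gene that marks newborn neurons, had a change of 0.04 (limma adjusted p = 0.770). The counts at an unadjusted p under 0.05 were 4 of 10 for astrocytes, 2 of 9 for microglia, 5 of 9 for oligodendrocytes, 3 of 7 for oligodendrocyte precursors and 6 of 9 for endothelium, against 17.9% of all genes. All changes were negative for oligodendrocytes (9 genes, median -0.21), their precursors (7 genes, median -0.12) and endothelium (9 genes, median -0.17). For astrocytes 8 of 10 were negative and for microglia 5 of 9, against 62.7% of all genes. At their levels the medians of all probe sets had a median of -0.10 for oligodendrocytes and for their precursors, and -0.0046 for endothelium. Below the median of their own level lay 9 of 9, 7 of 7 and 8 of 9 genes of these lists, 5 of 10 for astrocytes and 4 of 9 for microglia. Among all genes the share was 54.4%. The counts at an unadjusted p under 0.05 were 0 of 8 for choroid plexus (all 8 negative, median -0.38), 1 of 10 for meninges and fibroblasts and 0 of 10 for thalamus and habenula.

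The genes whose array values ran most like those of Gap43 were sought by the root mean square difference of the values after each probe set had its mean over the 10 arrays subtracted. Of 18192 other genes, the closest were Vkorc1l1 (0.0259), Abhd17b (0.0307) and Fryl (0.0336), against a median of 0.118 over all genes. For Atf3 they were Nop56 (0.0359), Atp13a4 (0.0402) and Zcchc2 (0.0410), against a median of 0.130. A gene with the same value on all 10 arrays would differ by 0.0837 from Gap43 and by 0.0955 from Atf3, less than these medians. These differences are in log2 units over 10 arrays that also share their normalization and their differences between arrays.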

How the data were processed

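The deposited values are log2 expression of 45101 probe sets on 10 arrays. The authors made them with RMA, per the submitters' processing notes, with software and version not given in the sources used here. No value was missing and no 2 arrays were identical. After 64 control probe sets were removed, 45037 were tested without a filter or further normalization. Of these, 34945 had 1 gene symbol on the platform, 932 had several and 9160 had none, and 34741 of those with 1 symbol were matched by Entrez identifier to a mouse gene table of GRCm38.p6.

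The difference TPlp+AxL minus AxL was fitted with limma 3.58.1 (lmFit, eBayes; R 4.3.3), and p-values were adjusted by Benjamini-Hochberg over the 45037 probe sets, with calls at an adjusted p under 0.05. SE and 95% intervals come from this fit and measure the uncertainty of the difference between the group means. They rest on the spread between mice, with each probe set's variance drawn towards that of all probe sets. The number of arrays limits their precision. The script was tested on simulated data. In a list each gene counts by its brightest probe set, the one with the highest mean over the 10 arrays.

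The members and lists were chosen with earlier results of these data known. Named were every member by every probe set; per pathway list, up to 3 called genes of largest change or otherwise the 2 with the smallest p; and the 3 genes closest in pattern to Gap43 and Atf3. Markers were given by list, with those that passed the test in the T cell and neuronal lists, and Dcx, also named.

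Alternatives were a trended and robust variance, subtracted array medians, repeated quantile and cyclic loess normalization, the probe sets above the median level, array weights, a replicate block, each array left out, and gene means over all probe sets. Leaving out AxL 3, AxL 5 and TPlp+AxL 1 together was chosen after seeing the data. The replicate numbers were not used to pair mice.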

Additional observations from a re-analysis of the deposited data

Results flagged for a closer look

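Of 52 group values (26 probe sets in 2 groups), 3 held an array far from the other 4 of its group, and chance alone gives this in about 5% of groups. In the Marcks probe set 1456700_x_at, TPlp+AxL 1 was the highest TPlp+AxL array at 11.78. In Marcksl1, AxL 4 was the highest AxL array, at 11.66 in 1437226_x_at and 11.02 in 1415922_s_at.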

How the results depend on the processing

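Over the 18 other settings, 0 of 463 member values passed the threshold in limma, and the smallest adjusted p was 0.0602, for Basp1 with array weights. Apart from fits with 1 array left out, 177 member values kept their sign and 26 turned; with 1 array left out, 235 kept it and 25 turned. Signs turned after subtracting array medians for Marcks 1430311_at (-0.025) and Gadd45a (-0.017). After repeated quantile normalization they turned for Gap43 (0.021), Marcks 1415971_at (0.055), 1456700_x_at (0.11), 1415973_at (0.077), 1415972_at (0.031) and 1430311_at (-0.019), Marcksl1 1437226_x_at (0.041), Gadd45a (-0.016), and Klf7 1449439_at (0.031) and 1419356_at (0.018). After cyclic loess these values were 0.013, 0.042, 0.11, 0.076, 0.040, -0.0053, 0.038, -0.015, 0.038 and 0.028, in the same order. Without AxL 3, AxL 5 and TPlp+AxL 1 together they turned for Marcks 1430311_at (-0.021), Marcksl1 1435627_x_at (-0.044) and 1435415_x_at (-0.056), and Klf7 1419356_at (0.034). With 1 array left out, values ran from -0.049 to 0.015 for Marcks 1456700_x_at, -0.079 to 0.028 for 1415973_at, -0.12 to 0.070 for 1415972_at and -0.010 to 0.012 for 1430311_at. They ran from -0.11 to 0.064 for Marcksl1 1437226_x_at, -0.18 to 0.051 for 1415922_s_at and -0.042 to 0.099 for 1435415_x_at. They ran from -0.0064 to 0.075 for Sprr1a, -0.053 to 0.064 for Gadd45a, -0.076 to 0.0084 for Klf7 1449439_at and -0.11 to 0.022 for 1419356_at. The cause was not tested.

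Over all probe sets, the lower count was 210 with array medians subtracted, 43 after cyclic loess, 288 with array weights, 38 with a replicate block and 0 without the 3 arrays, against 85. The higher count was 191 among probe sets above the median level, 465 with array weights and 1 without the 3 arrays, against 291. With 1 array left out, the higher count ran from 159 without TPlp+AxL 4 to 387 without TPlp+AxL 2, and the lower count from 26 without TPlp+AxL 4 to 187 without AxL 2. The kinase, calmodulin and phosphatase list, 2 lower, had 1 with a trended variance, 4 with medians subtracted, 1 after quantile normalization, 0 after cyclic loess, 5 with array weights, 0 without the 3 arrays, 4 with gene means and 1 to 3 with 1 array left out. The regeneration-associated list, 3 higher, had 1 above the median level and 0 without the 3 arrays, and the cornified envelope list, 1 higher, had 0 without them. Above the median level Il6 was not tested, Socs3 passed (limma adjusted p = 0.00549) and Plaur did not (limma adjusted p = 0.0542). The actin and membrane list, 0 lower, had 1 with gene means, and 0 to 1 with 1 array left out, the 1 without TPlp+AxL 1. Fewer arrays were tested without the 3. The filter at the median level leaves 21 of 26 members: Sprr1a, Gadd45a and 3 Klf6 probe sets are absent from it.

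Deviations of same-numbered arrays correlated from -0.22 to 0.36 over 5 pairs, and 1 of 5 AxL arrays correlated best with its own number. So few pairs cannot show whether same-numbered mice were paired. The replicate block gave 203 higher and 38 lower probe sets, 0 members passed, and the smallest member adjusted p in limma was 0.150.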
